A study of Homo sapiens with 6 samples.

Results

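Transcripts of 9 enzymes that make asparagine, aspartate, alanine, glutamate, glutamine, proline and arginine were followed in K562 cells, a human chronic myeloid leukemia (CML) cell line grown in suspension. The enzymes were listed by name, as genes of non-essential amino acid synthesis outside the serine branch, with earlier results of these data known. All 9 were found among the 24960 genes of the deposited table. RNA was sequenced in 6 libraries, 3 labelled as control and 3 from cells given hyperoside, a plant flavonol glycoside, at 2 mM according to the text of the study. All libraries came from this 1 cell line with no other genetic change or agent named, and the time from treatment to RNA extraction for sequencing is not stated. The labels do not say whether replicates were separate cultures, so p-values measure only the spread between these libraries, which may be technical. In RNA from whole cultures, fewer cells with a transcript and less of it per cell cannot be told apart.

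These enzymes draw carbon from glycolysis and the tricarboxylic acid cycle and move nitrogen between amino acids, with glutamate as the central donor. Asparagine synthetase joins aspartate and glutamine nitrogen, transaminases pass nitrogen from glutamate to oxaloacetate or pyruvate, and the proline enzymes reduce glutamate to proline. Several of these genes are textbook targets of the amino acid response, in which the kinase GCN2 or a related kinase phosphorylates eIF2alpha and the translation of the transcription factor ATF4 rises. Leukemia cells are known to differ in asparagine synthetase, and the asparagine-degrading drug asparaginase is used against acute lymphoblastic leukemia.

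The 6 libraries held 35613283 to 36754725 counts each. Levels were expressed as CPM, the count of a gene scaled to a common depth with TMM factors of 0.957 to 1.03, and hyperoside was set against control by the quasi-likelihood test of edgeR. Values of 3 libraries are listed in the order of replicates 1, 2 and 3, and SE is the standard error that goes with a log2 fold change. A gene was called at a Benjamini-Hochberg adjusted p under 0.05 over the 15095 genes that passed the filter on low counts. The 20 most abundant genes held 10.2% to 11.2% of counts in every library. Each of the 7 erythroid genes listed for K562 cells was detected, with a summed level of 4708 to 6105 CPM in the control group against 3379 to 4027 CPM in hyperoside libraries. The globin genes HBG1, HBG2 and HBE1 of this list were called lower and the erythroid factor KLF1 higher, from 37.3 to 72.4 CPM, while GATA1 and TAL1 were not called. The labels name bone as the tissue, but of 7 listed osteoblast genes only 3 passed the filter. Their summed level was 9.73 to 12.4 CPM in the control group and 9.88 to 11.7 CPM in the hyperoside group. RUNX2 had the highest group means of the 3, with 5.71 CPM in the control group and 6.16 CPM in the hyperoside group. SP7 and ALPL of this list had at most 0.0106 FPKM as a group mean. Of 6 genes listed for lymphocytes, fibroblasts and endothelial cells, 5 passed, with a summed level of 12.9 to 14.8 CPM in the control group and 30.3 to 33.5 CPM in the hyperoside group. Most of that rise was PECAM1, from 9.74 to 28.0 CPM, while the B cell marker MS4A1 had 1 count in 1 library and none in the others. The part of these shifts in the results was not tested.

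All 9 enzymes passed the filter on low counts, and hyperoside-treated cells had less transcript of 8 of them and more of 1. The 8 called lower (ASNS, GOT1, GOT2, GPT2, GLUD1, ALDH18A1, PYCR1 and ASS1) stand beside 23.2% of all tested genes called lower, and the 1 called higher, GLUL, beside 22.1% called higher. At the study's added limit of a fold change above 2, ASNS, ASS1, GPT2, GOT1 and ALDH18A1 were called lower, 5 of 9 against 3.76% of all tested genes, and none was called higher, against 6.43%. That count of 0 was the same with DESeq2 and in every other alternative tried, while GLUL itself had an adjusted p under 0.05 in each. Control and hyperoside libraries were fully separated in all 9, being lower in 8 against 27.3% of all tested genes and higher in 1 against 27.1%. The median log2 fold change of the 9 was -1.13, beside 0.00 over all tested genes. Since the 9 were chosen with results of these libraries known, their shares and median are a description and no independent evidence of a direction. The fold changes spread widely, from -2.51 for ASNS to 0.32 for GLUL.

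**Figure D1:**
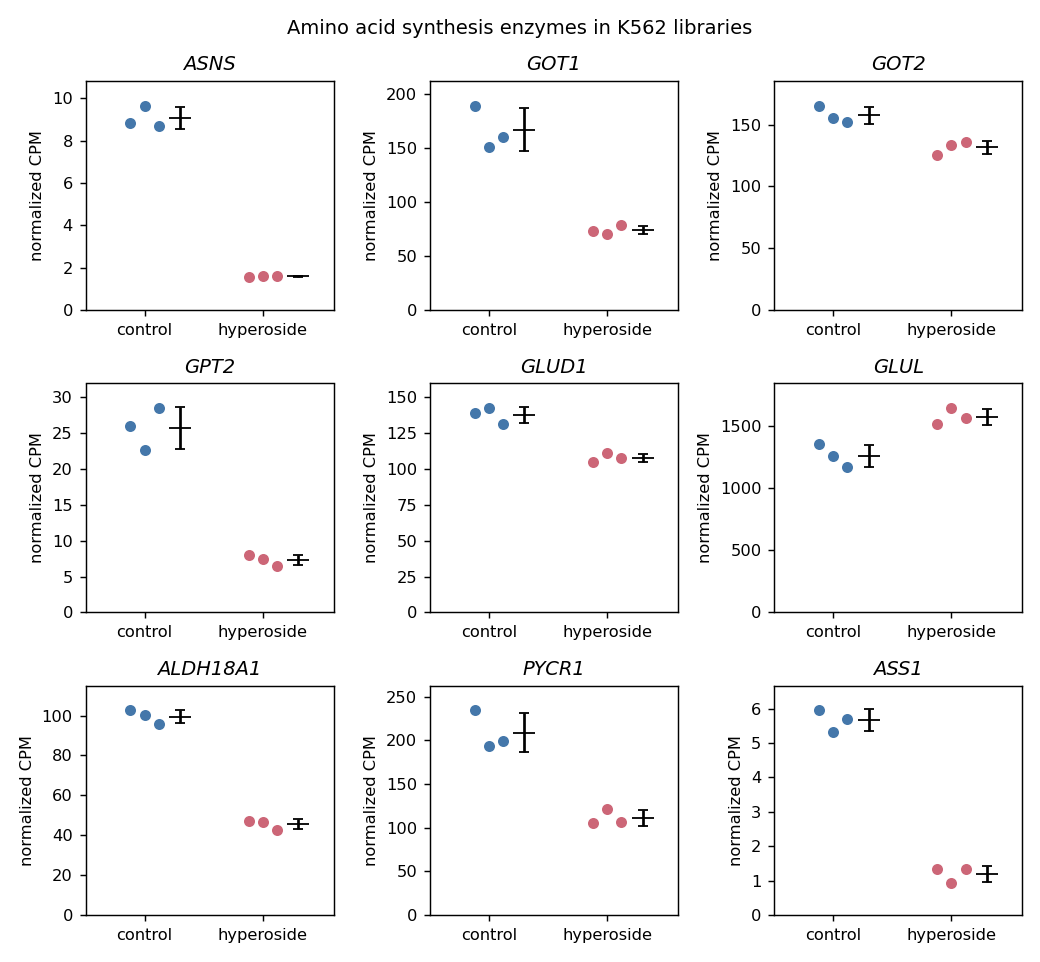
Normalized CPM (vertical axes, from 0) of the 9 enzymes in the 3 control and 3 hyperoside libraries. Points are libraries, and the horizontal mark with its bar is the mean ± SD of 3. The groups do not overlap in any panel, and GLUL is the panel in which the hyperoside libraries lie above the control libraries.

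Promoter letters of the enzymes were read because 8 of them moved in 1 direction. RefSeq promoter windows on GRCh38.p14 were matched for 7 of the 9 genes, in 10 windows, and GPT2 and PYCR1 were not matched. The 250 bases before each start were searched on both strands for TGATGNAA, the core of the element that C/EBP and ATF proteins bind in amino acid response genes, and for CACGTG, the E-box bound by MYC and other factors. The former was found in 2 windows, of ASNS and GOT1, against 3.14% of 35116 windows, and the latter in 2 windows, of ALDH18A1 and ASS1, against 6.34%. No window of GLUL, the gene that rose, or of GLUD1 and GOT2 held either, nor did the other window of ASNS or of ASS1. By the shares given, most windows of any gene hold neither, so the absence does not mark a direction. A match is a run of letters and not a shown binding site. The following stretches of 30 bases on the gene's strand have the matching letters in capitals and are shown because they hold the matches.
ASNS, minus strand, chr7:97872458-97872487: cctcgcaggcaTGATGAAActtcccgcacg
GOT1, minus strand, chr10:99430804-99430833, match on the opposite strand: aattgcattggTTGCATCAttctcggcagc
ALDH18A1, minus strand, chr10:95656830-95656859: gggctggcccgcCACGTGgagcgctggctt
ASS1, plus strand, chr9:130444878-130444907: gcgcgtccccgcCACGTGtccccggtcacc
The ASNS match began 68 bases before its start, the GOT1 match 198, the ALDH18A1 match 136 and the ASS1 match 71, each from the start whose window held it. The start used for ASNS, 97872408, lies inside the annotated span of the gene, and that used for ASS1, 130444961, is the second of its starts. The whole ALDH18A1 window, chr10:95656712-95656961 on the minus strand, shares no bases with an annotated exon in GENCODE 29 and is given with the E-box in capitals.
ALDH18A1: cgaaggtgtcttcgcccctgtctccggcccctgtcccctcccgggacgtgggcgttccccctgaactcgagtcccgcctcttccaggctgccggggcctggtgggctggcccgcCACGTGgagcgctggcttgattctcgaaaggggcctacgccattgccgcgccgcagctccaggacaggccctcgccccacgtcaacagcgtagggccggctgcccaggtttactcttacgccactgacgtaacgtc

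ASNS (NCBI gene 440, chromosome 7, 97851677 to 97928441, minus strand) encodes asparagine synthetase, which makes asparagine from aspartate with nitrogen from glutamine. It had 8.84, 9.66 and 8.70 CPM in the control libraries against 1.55, 1.61 and 1.61 CPM in the hyperoside libraries. Every hyperoside library lay far below every control library, and the smallest gap between the groups, 7.10 CPM, was larger than the widest range within a group, 0.954 CPM. The level fell from 9.07 ± 0.515 to 1.59 ± 0.0307 CPM (SD, n = 3 libraries each), which gave a log2 fold change of -2.51 (± 0.19 SE, edgeR adjusted p = 1.01e-08), at 17.5% of the control level. The raw counts behind these values were low, 311 to 340 in the control libraries and 57 to 59 in the hyperoside libraries.

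The ASNS row may not hold all reads of the locus. RefSeq places a read-through gene, CZ1P-ASNS (chromosome 7, 97852117 to 97972358), across it, and the table gives that gene a row of its own, named here after its values were seen. CZ1P-ASNS had 122, 96 and 109 counts in the control libraries against 64, 83 and 67 in the hyperoside libraries. Its level was 3.08 ± 0.372 CPM in the control group and 1.95 ± 0.272 CPM in the hyperoside group (SD, n = 3 each), and it fell by 0.66 on the log2 scale (± 0.25 SE, edgeR adjusted p = 0.0415). With the counts of both rows summed, a choice made after seeing the data, the log2 fold change of the sum was -1.78 (± 0.15 SE, edgeR adjusted p = 5.34e-08). HTSeq is among the tools in the submitters' processing notes, and by default it leaves out reads that overlap more than 1 gene. The sum would not restore such reads, so both the level and the size of the fold change of ASNS are uncertain.

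GOT1 (NCBI gene 2805, chromosome 10, 99396870 to 99430624, minus strand) encodes the cytosolic aspartate transaminase, which interconverts aspartate and glutamate. It had 189.5, 151.2 and 160.5 CPM in the control libraries against 73.2, 70.8 and 78.7 CPM in the hyperoside libraries. Control replicate 1 was the highest library, and all hyperoside libraries were at about the same low level. GOT1 fell from 167.1 ± 19.99 to 74.2 ± 4.04 CPM (SD, n = 3 each), with a log2 fold change of -1.17 (± 0.09 SE, edgeR adjusted p = 1.08e-08).

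The divergent transcript GOT1-DT, which lies beside the GOT1 start on chromosome 10 from 99430936 to 99461833, was named after its values were seen. It had 11.3, 11.5 and 13.6 CPM in the control libraries against 5.69, 5.58 and 6.62 CPM in the hyperoside libraries, and these groups did not overlap either. Its log2 fold change was -1.02 (± 0.15 SE, edgeR adjusted p = 1.89e-05). Exons of GOT1 share bases with AL391684.1 on the opposite strand in GENCODE 29, and whether the counting used strand is not given in the sources used here.

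GOT2 (NCBI gene 2806, chromosome 16, 58707131 to 58734316, minus strand), the mitochondrial aspartate transaminase, changed least of the 8 lower genes. It had 165.5, 155.04 and 152.5 CPM in the control libraries against 125.6, 133.6 and 135.8 CPM in the hyperoside libraries, so the groups lay close together without overlapping. The log2 fold change was -0.26 (± 0.07 SE, edgeR adjusted p = 0.00643), or 83.5% of the control level. GOT2 is the 1 enzyme whose call rested on a single library, since without hyperoside replicate 1 its log2 fold change was -0.23 and its edgeR adjusted p was 0.0558.

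GPT2 (NCBI gene 84706, chromosome 16, 46884362 to 46931289, plus strand) encodes the mitochondrial alanine transaminase, which uses glutamate to turn pyruvate into alanine. It had 25.96, 22.6 and 28.5 CPM in the control libraries against 8.01, 7.41 and 6.53 CPM in the hyperoside libraries. The lowest control library stood well above the highest hyperoside library, with a gap of 14.6 CPM against a widest range within a group of 5.88 CPM. GPT2 fell from 25.7 ± 2.95 to 7.32 ± 0.742 CPM (SD, n = 3 each), with a log2 fold change of -1.81 (± 0.13 SE, edgeR adjusted p = 4.81e-09). Its cytosolic counterpart GPT was near the floor, with 16, 17 and 7 counts in the control libraries against 2, 16 and 28 in the hyperoside libraries, and no difference was detectable at this depth (log2 fold change 0.16 ± 0.70 SE).

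GLUD1 (NCBI gene 2746, chromosome 10, 87050202 to 87094843, minus strand) encodes mitochondrial glutamate dehydrogenase, which interconverts glutamate and 2-oxoglutarate with free ammonium. It had 139.2, 142.6 and 131.7 CPM in the control libraries against 105.1, 111.02 and 107.5 CPM in the hyperoside libraries. The groups did not overlap, and the log2 fold change was small, -0.35 (± 0.07 SE, edgeR adjusted p = 5.73e-04). GLUD2, a near-identical copy without introns whose reads can be confused with those of GLUD1, went the other way, with 6.001, 4.91 and 4.62 CPM in the control libraries against 7.68, 8.01 and 6.98 CPM in the hyperoside libraries. The log2 fold change of GLUD2 was 0.55 (± 0.17 SE, edgeR adjusted p = 0.0128), and both rows are uncertain to the extent that reads were split between them. With both rows summed, a choice made after seeing the data, the sum had a log2 fold change of -0.31 and an edgeR adjusted p of 0.00171. Exons of GLUD1 share bases with SHLD2, and those of GOT2 with AC092378.1, each on the opposite strand.

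GLUL (NCBI gene 2752, chromosome 1, 182378098 to 182391790, minus strand) encodes glutamine synthetase, which joins ammonium to glutamate. It had 1355, 1260 and 1172 CPM in the control libraries against 1517, 1648 and 1568 CPM in the hyperoside libraries. The hyperoside libraries were all higher, but the gap between the groups, 162.5 CPM, was smaller than the widest range within a group, 182.5 CPM. GLUL rose from 1262 ± 91.3 to 1578 ± 65.7 CPM (SD, n = 3 each), which gave a log2 fold change of 0.32 (± 0.07 SE, edgeR adjusted p = 9.59e-04) or 1.25 times the control level.

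ALDH18A1 (NCBI gene 5832, chromosome 10, 95605941 to 95656711, minus strand) encodes delta-1-pyrroline-5-carboxylate synthase, which starts proline synthesis from glutamate. It had 102.6, 100.2 and 95.8 CPM in the control libraries against 47.2, 46.5 and 42.5 CPM in the hyperoside libraries, with little spread inside either group. The fall from 99.5 ± 3.42 to 45.4 ± 2.54 CPM (SD, n = 3 each) gave a log2 fold change of -1.13 (± 0.08 SE, edgeR adjusted p = 5.46e-09).

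PYCR1 (NCBI gene 5831, chromosome 17, 81932391 to 81937300, minus strand) encodes a mitochondrial pyrroline-5-carboxylate reductase, which makes proline in the last step. It had 234.3, 193.3 and 199.4 CPM in the control libraries against 104.95, 121.9 and 107.0 CPM in the hyperoside libraries, so each hyperoside library was well below each control library. Its log2 fold change was -0.91 (± 0.09 SE, edgeR adjusted p = 1.79e-07), or 53.3% of the control level, which fell just short of a fold change above 2. Exons of PYCR1 share bases with MYADML2 on the same strand and AC145207.4 on the opposite strand in GENCODE 29. PYCR3, the cytosolic form of the enzyme, had a log2 fold change of 0.32 (± 0.15 SE, edgeR adjusted p = 0.0842), and its groups overlapped.

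ASS1 (NCBI gene 445, chromosome 9, 130444707 to 130501274, plus strand) encodes argininosuccinate synthase, which joins citrulline and aspartate on the way to arginine. It had 5.94, 5.31 and 5.71 CPM in the control libraries against 1.34, 0.926 and 1.33 CPM in the hyperoside libraries, from 187 to 209 counts in the control libraries and 34 to 49 in the hyperoside libraries. The groups were far apart although the counts were few, and hyperoside replicate 2 was the lowest library. The fall from 5.66 ± 0.319 to 1.197 ± 0.235 CPM (SD, n = 3 each) gave a log2 fold change of -2.24 (± 0.24 SE, edgeR adjusted p = 6.52e-07). Several processed pseudogenes of ASS1 are annotated in the genome, and reads shared with them make its level uncertain.

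Levels of different genes were compared as deposited FPKM values, which correct a count for the length of the gene and the depth of the library. In the control group the mean FPKM ran from GLUL (153.4 ± 7.45) through PYCR1 (90.4 ± 7.55), GOT1 (82.9 ± 8.17), GOT2 (64.0 ± 1.24), GLUD1 (35.01 ± 1.24) and ALDH18A1 (26.7 ± 0.397) to GPT2 (5.59 ± 0.696), ASNS (2.76 ± 0.174) and ASS1 (2.58 ± 0.123) (SD, n = 3 each). Libraries of neighbours in this order overlapped for PYCR1 and GOT1 and for ASNS and ASS1. In the hyperoside group the order was GLUL (198.6 ± 7.88), GOT2 (55.3 ± 1.87), PYCR1 (49.9 ± 4.15), GOT1 (38.2 ± 1.87), GLUD1 (28.4 ± 0.733), ALDH18A1 (12.6 ± 0.798), GPT2 (1.65 ± 0.180), ASS1 (0.565 ± 0.111) and ASNS (0.4995 ± 0.00671). Here the libraries of GOT2 and PYCR1 overlapped, as did those of ASS1 and ASNS. GOT2 stood above GOT1 in every hyperoside library and below it in every control library, while ASNS, ASS1 and GPT2 were the 3 least abundant in both groups. Since the ASNS row may miss reads of its locus, its place in this order is uncertain.

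Summed over the 9 enzymes, the FPKM values came to 488.4, 450.9 and 450.5 in the control libraries against 375.0, 399.4 and 382.4 in the hyperoside libraries. The sum without GLUL was 327.9, 296.8 and 304.9 in the control libraries against 182.5, 191.9 and 186.6 in the hyperoside libraries. GLUL made up 32.3% to 34.2% of the sum in the control libraries and 51.2% to 51.9% in the hyperoside libraries. The sums are a description of the levels of the 9 genes and were not tested. Since the ASNS row may miss reads of its locus, the sums and the GLUL shares are uncertain to that extent.

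**Figure D2:**
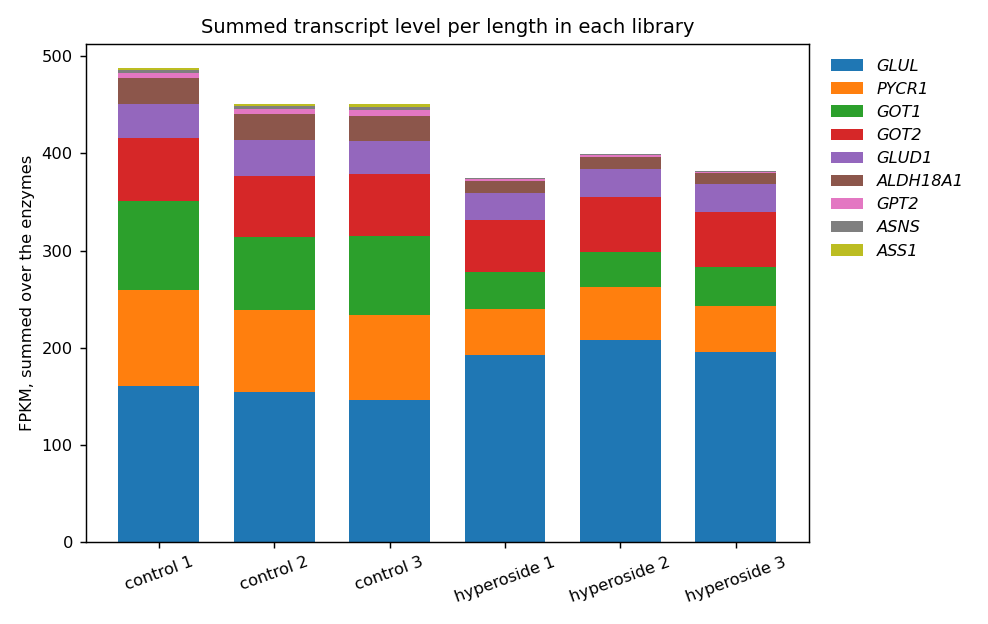
Deposited FPKM values of the 9 enzymes stacked for each library, with the summed FPKM on the vertical axis from 0. The GLUL segment at the base is taller in the 3 hyperoside libraries, and the segments above it sum to 296.8 to 327.9 in the control libraries against 182.5 to 191.9 in the hyperoside libraries. The ASNS row was used without CZ1P-ASNS, so its segment and the sums are uncertain.

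Ratios of 2 enzymes within a library do not depend on how libraries are scaled. They were compared between groups for 7 pairs, of which 5 are given here, with a two-sided exact permutation test, in which 3 libraries against 3 cannot give a p under 0.1. In each of these 5 pairs the groups did not overlap, and each had an exact permutation p of 0.1, which was 0.1 after Benjamini-Hochberg adjustment over the 7, so no pair could pass the threshold. The ratio of cytosolic GOT1 to mitochondrial GOT2 was 1.40, 1.19 and 1.29 in the control libraries against 0.714, 0.649 and 0.709 in the hyperoside libraries. GOT1 was thus the more abundant of these transaminases per length in every control library and the less abundant in every hyperoside library. On the log2 scale the mean ratio of GOT1 to GOT2 differed by -0.90 (hyperoside minus control), with an SD of 0.116 in the control group against 0.0774 in hyperoside libraries.

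Ratios of a synthesis enzyme to a gene of the adjoining or reverse step were separated as well. The ratio of ALDH18A1 to ALDH4A1, which encodes the dehydrogenase that turns pyrroline-5-carboxylate back into glutamate, was 4.31, 5.79 and 4.97 in the control libraries against 2.77, 2.75 and 2.72 in the hyperoside libraries. ASS1 to ASL, the lyase that follows it, was at 0.209, 0.193 and 0.241 against 0.0723, 0.0444 and 0.0664. On the log2 scale the ratio of ASNS to GOT1 differed by -1.35 and that of GPT2 to GOT2 by -1.55. The former was taken from the ASNS row without CZ1P-ASNS, so its size is as uncertain as the fold change of ASNS.

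**Figure D3:**
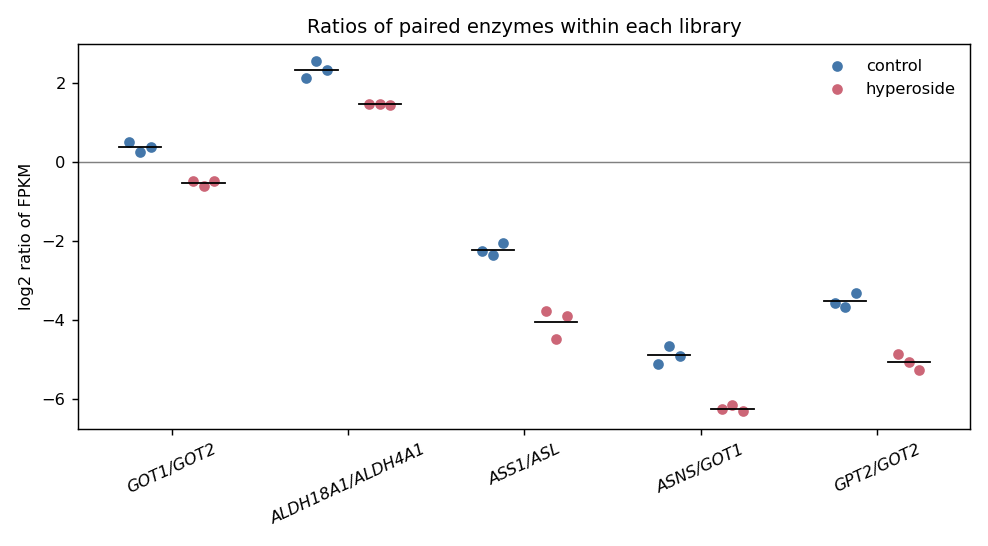
Log2 ratios of FPKM (vertical axis) for 5 enzyme pairs in each library, with control libraries in blue, hyperoside libraries in red and a black line at each mean of 3. The hyperoside libraries lie below the control libraries in all 5 pairs. The ASNS row was used without CZ1P-ASNS, and its level is uncertain.

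The rest of each pathway was counted from lists of enzymes that hold none of the 9 genes, and the shares of all tested genes given above, 23.2% lower and 22.1% higher, apply to these counts too. In proline synthesis and breakdown 7 of 9 listed genes were tested, with 2 called lower, 1 called higher (PEPD) and a median log2 fold change of 0.03. P4HA2, a subunit of the collagen prolyl hydroxylase, was among those lower with -0.36 and PEPD, the dipeptidase that frees proline, 0.31. The call of PEPD was near the threshold (edgeR adjusted p = 0.0417), and with DESeq2 no gene of the list was called higher, nor without control replicate 2 or 3 or hyperoside replicate 2 or 3. Without control replicate 1, 2 were. OAT, which links ornithine to proline synthesis, had 0.06 and an edgeR adjusted p of 0.525. Proline degradation could not be followed at its first step, since PRODH did not pass the filter.

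In glutamine and glutamate handling 19 of 21 listed genes were tested, with 8 called lower, 5 called higher and a median log2 fold change of -0.23. The largest fall was that of GFPT1, which uses glutamine to make glucosamine-6-phosphate, from 364.2 ± 48.5 to 134.6 ± 7.84 CPM (SD, n = 3 each), which gave a log2 fold change of -1.44 (± 0.09 SE, edgeR adjusted p = 1.38e-09). KYAT1, a transaminase acting on glutamine and kynurenine, had -1.23, PPAT, which starts purine synthesis with glutamine nitrogen, -0.85, and OPLAH, which frees glutamate from oxoproline, -0.68. Higher were PFAS, another glutamine-using purine enzyme, with 0.54, CTPS2, which makes CTP, with 0.37, GAD1, which turns glutamate into GABA, with 0.31, ALDH5A1, of GABA breakdown, with 0.26, and GLUD2. Without hyperoside replicate 1 the count called higher was 3.

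In the asparagine and aspartate list 6 of 9 genes were tested, with 1 called lower, 2 called higher and a median of 0.12 on the log2 scale. NARS1, which charges tRNA with asparagine, had -0.39. ASRGL1, an asparaginase, had -0.01 (± 0.13 SE). NIT2, an omega-amidase acting on ketoglutaramate and ketosuccinamate, had 0.38. Without hyperoside replicate 1 the count called higher was 1.

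In the arginine, urea cycle and polyamine list 13 of 18 genes were tested, with 5 called lower, 2 called higher and a median of -0.13. Both arginases, which split arginine to ornithine and urea, were called in opposite directions. ARG2, the mitochondrial form, had 151.3, 146.2 and 150.1 CPM in the control libraries against 83.2, 71.5 and 89.5 CPM in the hyperoside libraries, a log2 fold change of -0.87 (± 0.08 SE, edgeR adjusted p = 1.94e-07). ARG1, the cytosolic form, had 7, 8 and 2 counts in the control libraries against 60, 109 and 110 in the hyperoside libraries, a log2 fold change of 3.96 (± 0.48 SE, edgeR adjusted p = 3.36e-06). Even then ARG1 stayed far below ARG2 per length, at 1.76 against 43.3 FPKM as means of the hyperoside group. ASL, the partner of ASS1, fell from 30.7, 29.6 and 25.5 CPM to 19.9, 22.5 and 21.6 CPM, a log2 fold change of -0.42 (± 0.10 SE, edgeR adjusted p = 0.00282). OAZ1 and OAZ2, which encode antizymes that restrain ornithine decarboxylase, had -0.50 and -0.35, while ODC1 itself had -0.07 (edgeR adjusted p = 0.519). CPS1, which makes carbamoyl phosphate, had 0.40 (edgeR adjusted p = 0.0253), and the count called higher was 1 without control replicate 2 or 3 or hyperoside replicate 1.

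In the list of carbon supply and carriers 18 of 21 genes were tested, with 6 called lower, 2 called higher and a median of -0.14. SLC25A13, which encodes a mitochondrial carrier that exports aspartate in exchange for glutamate, rose from 36.7, 46.4 and 42.6 CPM in the control libraries to 77.1, 88.1 and 81.3 CPM in the hyperoside libraries, a log2 fold change of 0.97 (± 0.09 SE, edgeR adjusted p = 2.32e-07). Its twin SLC25A12 had 0.05 (± 0.09 SE). SLC25A22, a glutamate carrier, had -0.48. IDH1, which makes 2-oxoglutarate in the cytosol, fell by 0.91 on the log2 scale (± 0.08 SE, edgeR adjusted p = 5.38e-08). Among the mitochondrial forms IDH2 and IDH3A were called lower too, with -0.39 and -0.34. IDH3B and IDH3G had 0.02 and -0.17 and were not called. OGDH, which uses 2-oxoglutarate in mitochondria, had 0.60. MDH1 and CS had -0.04 and -0.11 and were not called, and MDH2 was called at -0.24.

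**Figure D4:**
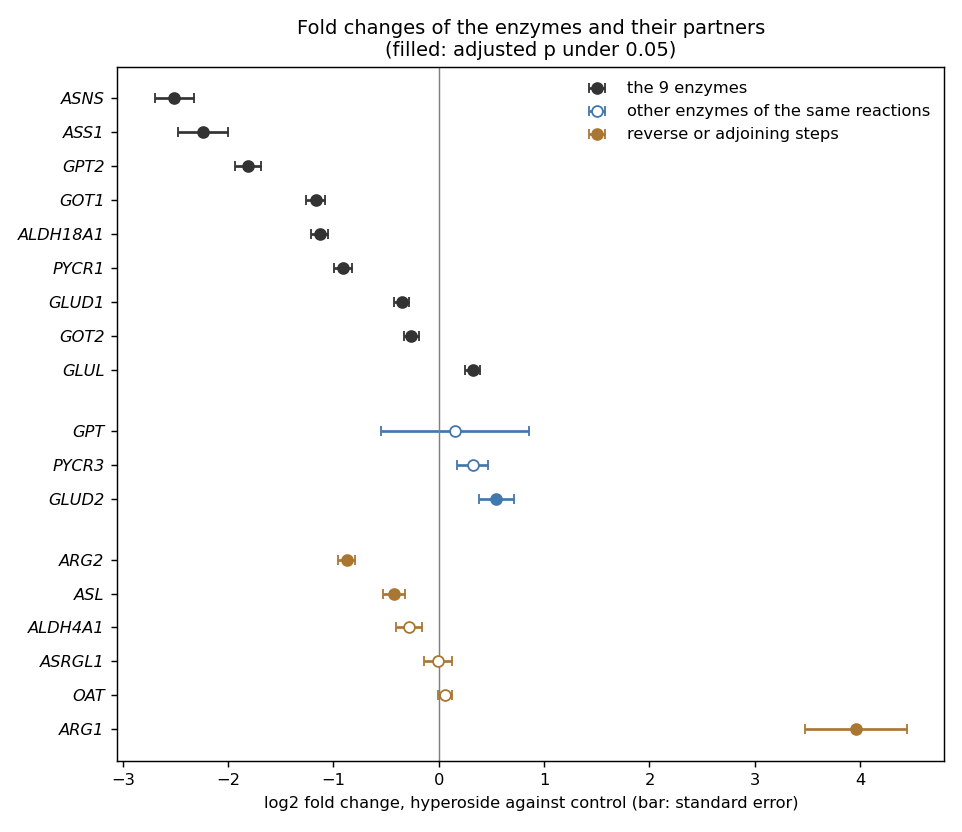
Log2 fold changes between hyperoside and control libraries with their standard errors from edgeR (horizontal axis), for the 9 enzymes in black, for other enzymes of the same reactions in blue and for reverse or adjoining steps in brown. Filled points have an adjusted p under 0.05. The 9 enzymes run from -2.51 for ASNS to 0.32 for GLUL, and the other genes from -0.87 for ARG2 to 3.96 for ARG1.

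Genes of the amino acid response and of the serine branch were listed for comparison. Of 16 listed kinases, factors and common targets of the response 15 were tested, with 12 called lower, 1 called higher and a median log2 fold change of -1.30. These counts and those of the serine branch stand beside 23.2% of all tested genes called lower and 22.1% called higher. ATF4 fell by 0.72 on the log2 scale (± 0.08 SE, edgeR adjusted p = 1.02e-06), and CHAC1, SESN2 and TRIB3, which are common targets, by 3.41, 1.44 and 1.41. EIF2AK4, the gene of GCN2, had -0.29 and EIF2AK3, the gene of PERK, 0.19 (edgeR adjusted p = 0.130). The gene called higher was NUPR1, with 0.69 and overlapping groups, and the count of genes higher was 0 with DESeq2 and without hyperoside replicate 1 or 3, and 2 without control replicate 3. Of the 7 serine branch genes 6 were called lower, with a median of -0.58, and PSAT1, the transaminase of that branch, had -1.89. Lower ATF4 targets were already known from these libraries when the lists were written, so these counts are no independent support.

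Among 6 listed genes tied to GLUL, as ligase parts that turn over its protein or as known regulators of its transcript, 5 were tested. Of these 2 were called, both higher, beside 22.1% of all tested genes called higher. FOXO3, a transcription factor, had 0.68 (± 0.09 SE, edgeR adjusted p = 8.15e-06) and CUL4A 0.27. CRBN and CTNNB1 had 0.09 and 0.00 and were not called. At an unadjusted p under 0.05 none of the list was lower but DDB1, with -0.18 and an edgeR adjusted p of 0.0542. DESeq2 called none of the list lower, and 1 was called lower without control replicate 3 or hyperoside replicate 2.

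The genes most like each enzyme in its levels were sought among about 9300 tested genes with a mean of at least 10 CPM, by the root mean square distance of log2 CPM over the 6 libraries, each gene centred on its own mean. Since the libraries fall into 2 groups, this distance mostly follows the size of the fold change, and it is given as a description. For ASNS the nearest were HSPA5 (distance 0.142), HSP90B1 (0.222) and HERPUD1 (0.227). ASS1 lay nearest to HERPUD1 (0.0842), HSP90B1 (0.146) and RIMS3 (0.148), and GPT2 to PSAT1 (0.144), INSIG1 (0.154) and SLC7A11 (0.181). Of these neighbours 2, HSP90B1 and HERPUD1, were shared by ASNS and ASS1. Both ASNS and ASS1 had a mean under 10 CPM, so neither could be named as a neighbour, nor could other genes at their level. GOT1 lay nearest to PPP1R14A (0.0562), ALDH18A1 to KHDC4 (0.0378), PYCR1 to PER1 (0.0439), GLUD1 to GPAT4 (0.0184), GOT2 to APMAP (0.0172) and GLUL to NIBAN2 (0.0151).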

How the data were processed

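The authors deposited raw counts per gene, not normalized, for the 6 libraries, and FPKM values that they made from the same counts. The submitters' processing notes name fastp, HISAT2, HTSeq and build hg38, and tool versions and the use of strand are not given in the sources used here. Tests of the counts were run with edgeR 4.0.16 under R 4.3.3 (filterByExpr with a minimum count of 10 and a minimum total of 15, TMM, quasi-likelihood test, condition as the only term), with Benjamini-Hochberg adjustment over 15095 genes. The standard error is the log2 fold change divided by the square root of F. DESeq2 1.42.0 and limma 3.58.1, on log2(FPKM + 1) and log2(FPKM + 0.1), served as alternatives, besides other scaling, no filter, leaving out single libraries and a block for replicate number. Enzyme ratios were taken from FPKM in Python 3.11.15. The edgeR test was tried on simulated counts and the permutation code on values with a known answer, while the other steps were not tried in this way. Positions and promoter windows came from RefSeq (GRCh38.p14) and exon overlaps from GENCODE 29.

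The enzymes and the gene lists were chosen with earlier results of these data known. Named genes were the 9 enzymes, called genes of the lists (up to 4 per list and direction by smallest adjusted p), listed genes that a sentence needed to be complete, and up to 3 nearest genes of each enzyme. Results of a few listed genes are not reported here.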

Additional observations from a re-analysis of the deposited data

How the results depend on the processing

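The log2 fold changes of the 9 enzymes were recomputed under 13 alternatives each, and 14 for ASNS and GLUD1. Direction and call held in 118 of 119 of these values. The exception was GOT2, whose log2 fold change ranged from -0.29 to -0.22 as each library was left out and whose edgeR adjusted p was 0.0558 without hyperoside replicate 1. The counts of enzymes called did not change by over 1.5 times. With 1 added to FPKM, which shrinks changes of low genes, ASNS had -1.32, ASS1 -1.20 and GPT2 -1.31. All 63 recomputed enzyme ratios kept their direction, and no p under 0.1 was possible. Since the groups were fully separated in every pair, leaving out a library or pairing by replicate number could not reverse a direction. Ratios of raw counts differ from those of FPKM almost only by a fixed factor of gene length. Most of these values are therefore no test of the direction.

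Libraries with the same replicate number did not deviate together (correlations of -0.0810, -0.0327 and -0.0342), so the numbers were not read as pairs. With the replicate number as a block the log2 fold change of ASNS was -2.51 and that of GOT2 -0.26 (edgeR adjusted p = 0.0247), and the 8 lower and 1 higher calls were the same in number, while calls over all genes went from 3508 to 3103 lower and from 3333 to 3026 higher. With 1 added to FPKM, 136 genes were lower and 208 higher at a fold above 2, beside 567 and 970. In the list of proline genes, the number called higher was 1, and it was 0 with the replicate block, DESeq2 or no filter, 2 with library totals alone, and 0 to 2 as each library was left out. The 1 amino acid response gene called higher was lost with DESeq2 and both FPKM fits (0 each), with a range of 0 to 2 without single libraries. Leaving out single libraries gave 1 to 3 genes called higher for arginine and for asparagine, 3 to 5 for glutamine and glutamate, and 0 to 1 called lower among genes tied to GLUL, where no filter on low counts also gave 1. ASNS and ASS1, with 57 to 59 and 34 to 49 counts in hyperoside libraries, had the largest standard errors of the 9 enzymes, 0.19 and 0.24.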
